A study of Mus musculus with 14 samples.

Results

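E14 mouse embryonic stem (ES) cells labelled as knockout for the methylcytosine dioxygenases Tet1 and Tet2 were compared with wild-type E14 cells before any treatment. The comparison uses 4 RNA-seq libraries of the 14 in the series, taken by the genotype and time in their labels: 2 of the Tet1/2 double knockout line (DKO) and 2 of the wild-type parent, all at 0 h. Both groups grew without feeder cells on gelatin, in serum with LIF, and neither had received INK128, the mTOR inhibitor (mTORi) that the other 10 libraries follow over time. The knockout was made in E14 with Cas9 guides against both genes, and clones grown from single sorted cells were genotyped, so a DKO library is a descendant of 1 cell while the wild-type culture is the parental population. A difference between the groups is therefore a difference between these lines, and the effect of the deletions cannot be told apart from what else the clone carries.

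TET enzymes oxidise 5-methylcytosine in DNA, which starts the removal of the methyl mark from promoters and enhancers. ES cells express Tet1 and Tet2 at high levels. The genes that DNA methylation keeps silent in these cells include many that act in the germline, and imprinted genes carry methylation on 1 parental allele.

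The values are TPM, a transcript abundance corrected for length and scaled to the same total in each library. The scale of all tests was log2(TPM + 1). A gene was tested if it averaged 1 TPM or more across the 14 libraries, which left 15878 genes, and limma fitted all libraries together. A gene was called where its Benjamini-Hochberg adjusted p was under 0.05. The sum was 1000000 TPM in each of the 4 libraries, with 29059 to 29906 genes above 0. Read depth cannot be read from the values, because TPM keep no counts, and was not used here. The 10 most abundant genes took 16.27% to 23.11% of a library, mitochondrially encoded genes 3.6% and 4.42% in wild type against 4.44% and 4.82% in DKO, and genes spanning under 200 bp 6.15% and 3.02% against 2.28% and 1.6%. Calls were therefore also made on values rescaled without the short and mitochondrial genes, where 64 genes were called lower in place of 37. The labels do not say whether the replicates came from separate cultures, and the study describes its experiments as repeated. The p-values measure the spread between these libraries, whatever part of it is technical.

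The ES cell markers fixed for this check and given here were present in both groups. Pou5f1, the core pluripotency factor also called Oct4, stood at 988 and 988 TPM in wild type and 890 and 1057 TPM in DKO. Sox2 had 231 and 248 against 247 and 200 TPM, Nanog 322 and 344 against 259 and 292 TPM, Esrrb 262 and 209 against 207 and 213 TPM, and Dppa5a 1682 and 2531 against 2257 and 1958 TPM. Klf4 had 66.4 and 71.5 against 135 and 96.0 TPM, and Zfp42 579 and 560 against 684 and 704 TPM. Both lay higher in DKO without overlap, as did 25.6% of all genes. Nanog lay lower without overlap, as did 16.3%. None of these genes was called. Tdgf1, also in the fixed set, is not reported here. Fibroblast markers, which would mark feeder cells, summed to 22.1 and 17.2 TPM in wild type and 27.4 and 34.9 TPM in DKO over 18 genes, of which Fap and Twist2 were at 0 in all 4 libraries and 11 were under 1 TPM in all of them. Of the 7 tested 0 were called, but in 4 of them both DKO libraries lay above both wild-type ones, against 25.6% of all genes, and their median was 0.61, or 0.32 without DKO replicate 1. The part of these cells in the results was not tested. Blood and endothelial markers summed to 63.8 to 67.7 TPM in wild type and 67.7 to 81.9 TPM in DKO, with Lyz2 and Hbb-bt at 0 in all 4.

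The targeted genes were read first. Tet2 had 99.7 and 96.0 TPM in wild type and 19 and 22.2 TPM in DKO. Both DKO libraries lay far below both wild-type ones, with a mean of 20.7 ± 2.14 TPM against 97.8 ± 2.62 TPM (SD, n = 2 each), a ratio of 0.211. The log2 fold change was −2.19 (SE 0.13, limma adjusted p = 1.05e-04), and it was called in each of the 4 fits that left out 1 untreated library. The gene lies on the minus strand of mm10, chr3:133463679-133545139.

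Tet1 RNA was much less reduced. It had 197 and 191 TPM in wild type and 152 and 147 TPM in DKO, so the groups did not overlap, but the log2 fold change of −0.38 (SE 0.086) did not pass the test (limma adjusted p = 0.0794). Tet1 lies on the minus strand at chr10:62804570-62908996. The guides were placed at an early and a late exon of each gene, and TPM over the whole gene do not resolve the part between them. The Tet1 level by itself thus does not show the knockout that the label gives. The study screened the clones by PCR and states that western blots for TET1 and TET2 bore out the knockouts. Protein was not measured here. Tet3, the third TET enzyme, had 6.04 and 6.82 TPM in wild type and 8.18 and 7.23 TPM in DKO. Its log2 fold change was 0.23 (SE 0.12, adjusted p = 0.415). Of the 14 genes tested among TET enzymes and their partners in 5-methylcytosine oxidation, such as Tdg and Ogt, Tet2 was the 1 called, against 0.812% of all genes.

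**Figure D1:**
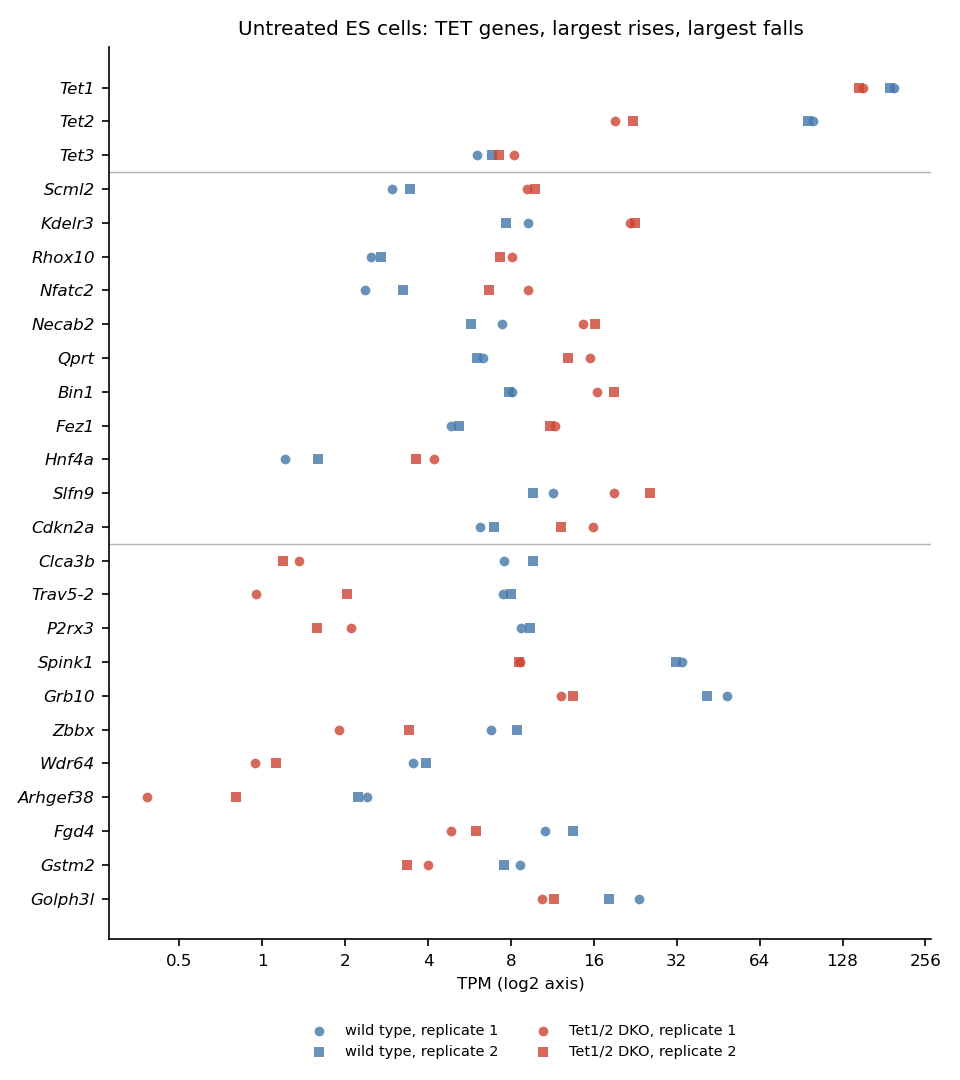
TPM in each untreated library on a log2 axis, for the 3 TET genes, 11 of the 12 largest rises and the 11 largest falls other than Tet2 among called genes; circles are replicate 1, squares replicate 2, blue is wild type and red is Tet1/2 DKO. In each rise both DKO libraries lie to the right of both wild-type ones, in each fall to the left, by the rule that chose them, and Tet1 is shifted by a ratio of 0.770.

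Across all genes the median log2 fold change was 0.025, which the common total of TPM largely fixes, with quartiles of −0.15 and 0.18. In DKO 92 genes were called higher, 0.579% of those tested, and 37 were called lower, 0.233%, which is 0.812% in either direction. Before adjustment, a p under 0.05 was reached by 1544 genes on the higher side (9.72%) and 814 on the lower side (5.13%), and the 2 groups of 2 did not overlap for 25.6% of genes on the higher and 16.3% on the lower side. The split of 92 and 37 became 70 and 50 once the median of every library was set to the same value, and 76 and 64 on the rescaled values.

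These counts rest on few libraries. Without wild-type replicate 1 they were 5 higher and 7 lower, without wild-type replicate 2 they were 0 and 1, without DKO replicate 1 they were 8 and 3, and without DKO replicate 2 they were 7 and 7. A single library was then assumed to vary like the other groups. With 1 spike-in factor for each library, taken from the study's table, 5 genes were called higher and 3 lower, and the median of all genes moved to 0.29. All 129 genes kept their direction in every one of these fits, but for most of them the adjusted call depends on both replicates being in. The groups did not overlap for any of the 129, so the direction could not turn in the 4 fits that left out a library. Besides Tet2, called in all 4 of those fits, P2rx3, Gm43803, Rhox10 and Kdelr3 were among those called in 3, and Necab2 was called in 2.

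**Figure D2:**
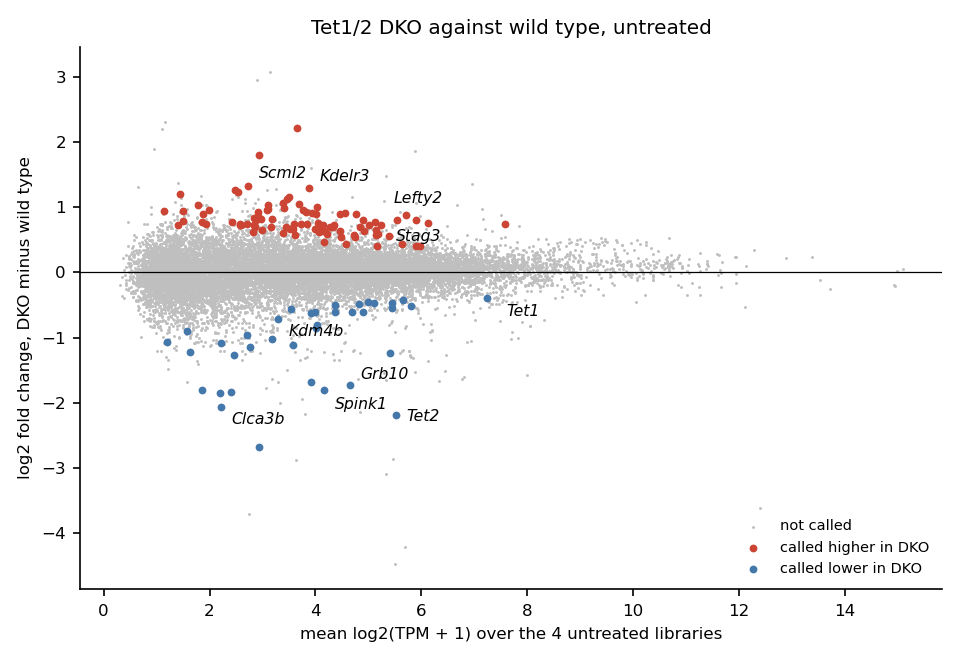
The log2 fold change of each of the 15878 genes tested, DKO minus wild type, against its mean log2(TPM + 1) over the 4 untreated libraries; red marks the 92 genes called higher, blue the 37 called lower, and grey the others. The calls sit between 0.40 and 2.22 on the higher side and between −0.40 and −2.68 on the lower side, and some genes with larger differences were not called because their replicates were far apart.

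The median level of the genes called higher went from 8.62 TPM in wild-type cells to 17.6 TPM in DKO cells, and 2 of the 92 had a wild-type mean under 1 TPM, as had 718 of the 15878 genes tested. Their median log2 fold change was 0.75, and 14 rose by more than 1 on the log2 scale. Of the 92, 87 were protein-coding (94.6%, against 77.5% of all genes tested). The genes called lower went from a median of 20.7 TPM in wild-type cells to 10.9 TPM in DKO cells, with a median log2 fold change of −0.90, and 26 of the 37 were protein-coding.

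The largest rises named by the rule were of genes with unlike roles. Scml2, an X-linked Polycomb-related protein of the germline, had 2.96 and 3.43 TPM in wild type and 9.19 and 9.76 TPM in DKO, a log2 fold change of 1.32 (SE 0.23, limma adjusted p = 0.0397). Rhox10, a homeobox gene of the X-linked Rhox cluster, had 2.48 and 2.70 against 8.05 and 7.28 TPM (log2 fold change 1.27, SE 0.13, adjusted p = 0.00359). Both X-linked genes were about 3 times higher in DKO, at a ratio of 2.96 each. On the X chromosome 9 genes were called higher and 0 lower, out of 590 tested, which is 3.72% of the genes tested. Among the X-linked rises were 1700013H16Rik, at 3.88 and 6.0 against 31.5 and 21.8 TPM, and Gm364, at 2.47 and 3.81 against 13.2 and 13.3 TPM, both gene models outside the naming rule and chosen after their values were seen.

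Signalling genes were also among the rises. Nfatc2, a calcium-regulated transcription factor, had 2.36 and 3.24 TPM in wild type and 9.25 and 6.66 TPM in DKO (log2 fold change 1.23, SE 0.19, limma adjusted p = 0.0253). Necab2, a neuronal calcium-binding protein, had 7.4 and 5.75 against 14.6 and 16.1 TPM (1.12, SE 0.13, adjusted p = 0.00787). The groups were well separated for both genes.

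The other named rises lay between 0.99 and 1.30 on the log2 scale. Kdelr3, a receptor that returns chaperones to the endoplasmic reticulum, had 9.26 and 7.65 against 21.7 and 22.6 TPM (1.30, SE 0.12, limma adjusted p = 0.00359). Qprt, an enzyme of NAD synthesis from tryptophan, had 6.36 and 6.01 against 15.5 and 12.9 TPM (1.07, SE 0.13, adjusted p = 0.00911). Fez1, a kinesin adaptor, had 4.84 and 5.19 against 11.6 and 11.1 TPM (1.04, SE 0.11, adjusted p = 0.00723). DKO was a little over 2-fold higher in these genes, at ratios of 2.62, 2.29 and 2.26. Kdelr3 overlaps Ddx17 on the other strand, and the counting was not stated to use strand. Bin1, a membrane-bending BAR domain protein, rose by 1.05 and Slfn9, a Schlafen family gene, by 1.0 (adjusted p = 0.0443 and 0.0368). Hnf4a, a nuclear receptor of endoderm and liver, had 1.21 and 1.60 TPM in wild type and 4.22 and 3.61 TPM in DKO (1.03, SE 0.18, adjusted p = 0.0397).

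Cdkn2a, which encodes the cell cycle inhibitors p16 and ARF, had 6.16 and 6.92 TPM in wild type and 15.9 and 12.2 TPM in DKO, a log2 fold change of 0.99 (SE 0.15, limma adjusted p = 0.0254). It was the 1 called gene of 19 tested G1 cyclins, CDKs and CDK inhibitors, where 0.812% of all genes were called. The list's median was 0.067 beside 0.025 for all genes. That median was −0.006 without wild-type replicate 1 and 0.13 without wild-type replicate 2. Cdkn1a, which encodes p21, had 20.5 and 28.2 against 48.2 and 30.5 TPM (adjusted p = 0.254). Of 28 tested p53 target genes 0 were called, with a median of 0.063 that ranged from −0.12 without wild-type replicate 1 to 0.28 without wild-type replicate 2.

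The rest of the rises were smaller, and those given here were chosen after their values were seen. Smo, the signal transducer of the Hedgehog pathway, had 10.3 and 11.3 TPM in wild type and 24.2 and 18.1 TPM in DKO (0.90, SE 0.14, limma adjusted p = 0.0254). Pik3c2b, a class II PI3K, had 6.25 and 5.37 against 11.1 and 10.9 TPM (0.82, SE 0.13, adjusted p = 0.0254). In both genes the groups did not overlap. Atp1b2, a subunit of the sodium pump, rose by 0.90, and the calcium-signalling kinases Camk2b and Camkk2 by 0.75 and 0.69. Retsat, of retinol metabolism, had 4.70 and 5.41 against 10.8 and 10.8 TPM (0.96, SE 0.14, adjusted p = 0.0193).

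The largest falls outside chromosome 3 named by the rule are given here, and Grb10 below. Spink1, a trypsin inhibitor, had 33.4 and 31.9 TPM in wild type and 8.65 and 8.54 TPM in DKO, a log2 fold change of −1.81 (SE 0.22, limma adjusted p = 0.0124). P2rx3, an ATP-gated channel of sensory neurons, had 8.73 and 9.36 against 2.10 and 1.58 TPM (−1.83, SE 0.17, adjusted p = 0.00359), and it overlaps Ssrp1 on the other strand. Trav5-2 is annotated as a pseudogene among the variable segments of the T cell receptor alpha locus. It had 7.49 and 8.01 against 0.953 and 2.03 TPM (−1.85, SE 0.26, adjusted p = 0.0165). At 24 and 72 h of mTORi its log2 fold change was −0.38 and −1.53. DKO kept between 0.192 and 0.264 of the wild-type mean in these 3 genes. Fgd4, an exchange factor for Cdc42, fell by 1.02 and Wdr64 by 1.22 (adjusted p = 0.0254 and 0.0132).

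The largest fall of all calls was that of Gm28625, a gene model of 205 bp outside the naming rule, at 22.7 and 14.9 TPM in wild type and 1.46 and 2.75 TPM in DKO (−2.68, SE 0.35, limma adjusted p = 0.0133).

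Grb10 was the 1 imprinted gene called, of 45 tested, where 0.812% of all genes were called. It encodes an adaptor that dampens insulin and IGF receptor signalling, and it had 48.8 and 41.2 TPM in wild type and 12.2 and 13.4 TPM in DKO. The mean fell from 45.0 ± 5.38 to 12.8 ± 0.892 TPM (SD, n = 2 each), a log2 fold change of −1.73 (SE 0.27, limma adjusted p = 0.0260). The median of the 45 imprinted genes was 0.037, beside 0.025 for all genes, and lay between −0.15 and 0.18 when 1 library was left out. H19, for example, had 21.6 and 152 against 122 and 44.0 TPM, with both genotypes overlapping, and Peg3 had 20.1 and 50.5 against 20.4 and 15.6 TPM (adjusted p = 0.258).

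Chromosome 3, which carries Tet2, stood apart from the other chromosomes. Of the 37 genes called lower 20 lie on it (54.1%), while it holds 759 of the genes tested (4.78%), and 1 of the 92 genes called higher, Pla2g12a, lies there. The shift was not limited to called genes. The median log2 fold change of its genes was −0.21, against 0.033 for the other chromosomes, and 595 of the 759 (78.4%) had a fitted value below 0, against 44.2% elsewhere. In 369 of them (48.6%) the DKO values were both under the lower wild-type value, against 14.7% of genes on the other chromosomes and 16.3% of all genes. Among chromosome 3 genes averaging 10 TPM or more the median was −0.23, a ratio of 0.851.

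Relative to the rest of each library, the chromosome 3 median was −0.22 in DKO replicate 1 and −0.27 in DKO replicate 2. It was −0.23 and −0.27 in the DKO libraries of 24 h and −0.21 and −0.27 in those of 72 h, each against the wild-type libraries of its own time. The 2 wild-type libraries of 0 h differed by 0.014 on the same scale. The shift was thus present in all 6 DKO libraries and was many times the difference between wild-type replicates. It is given as a description, with no test.

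Along chromosome 3 the shift was not even. In windows of 10 Mb the median, relative to the other chromosomes, lay between −0.18 and −0.47 in each window from the start of the chromosome to 110 Mb, and at −0.29 and −0.30 in the windows from 140 to 160 Mb. In between it was −0.001 from 110 to 120 Mb (25 genes) and −0.030 from 120 to 130 Mb (44 genes), and −0.10 in the window of Tet2 from 130 to 140 Mb (43 genes). The windows from 0 to 10, from 20 to 30 and from 70 to 80 Mb held under 20 genes each, with medians of −0.30, −0.29 and −0.25. The same course was seen at 24 and 72 h, where the window from 110 to 120 Mb was at 0.040 and 0.081, except that at 72 h the window of Tet2 was at −0.23.

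**Figure D3:**
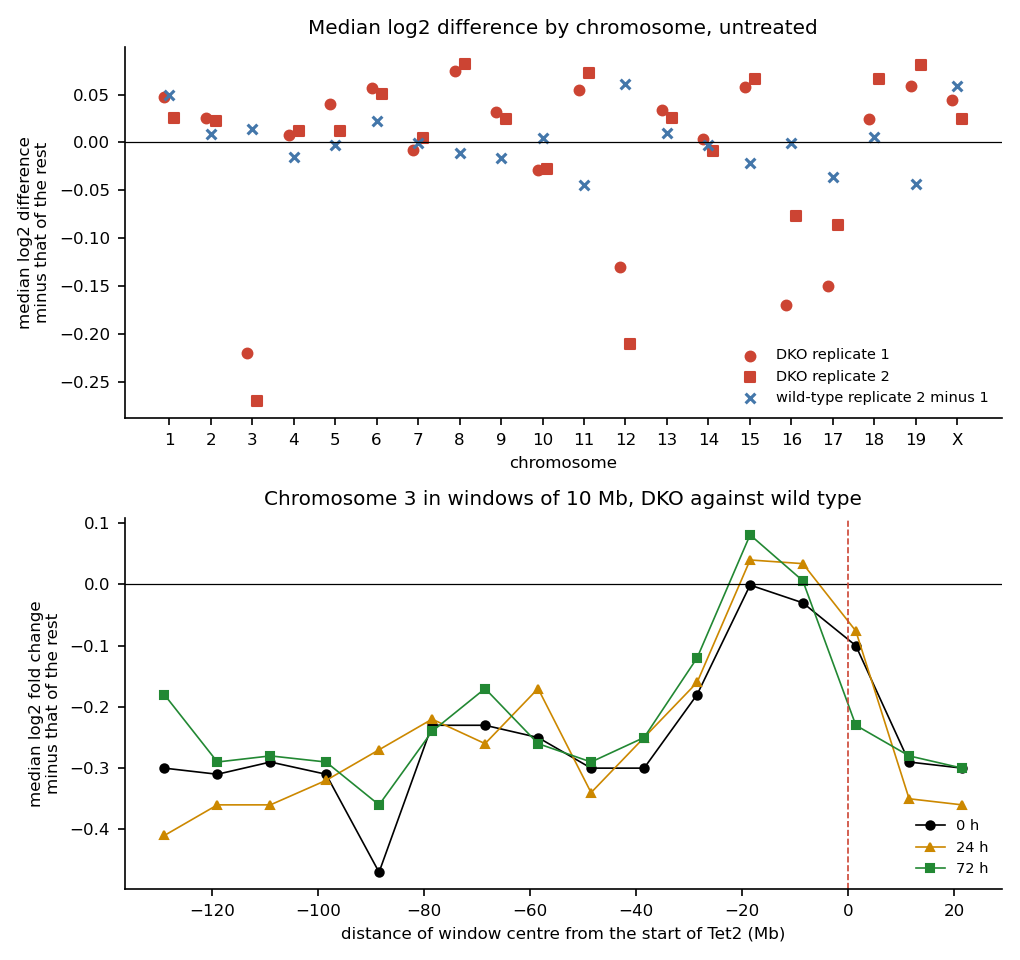
Upper plot: the median log2 difference of the genes of each chromosome minus that of the genes on the others, for each DKO library against the wild-type mean (red) and for wild-type replicate 2 minus replicate 1 (blue crosses), at 0 h. Lower plot: the same quantity for 10 Mb windows of chromosome 3 at 0, 24 and 72 h against the distance of the window's centre from the start of Tet2 (dashed line); at 0 h the windows from 110 to 130 Mb, just before Tet2, lie at −0.001 and −0.030, and those farther away on either side between −0.18 and −0.47.

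Smaller downward shifts in both DKO libraries were largest on 3 other chromosomes. Relative to the rest, the median of chromosome 12 was −0.13 in DKO replicate 1 and −0.21 in replicate 2, that of chromosome 16 was −0.17 and −0.077, and that of chromosome 17 was −0.15 and −0.086. Wild-type replicates differed by 0.061, −0.001 and −0.036 on these chromosomes. On the other autosomes and the X chromosome the DKO libraries lay between −0.029 and 0.082. Some of these were also of 1 sign in both DKO libraries, such as chromosome 8 at 0.075 and 0.082 and chromosome 10 at −0.029 and −0.028. Called were 1 gene higher and 1 lower of 697 tested on chromosome 12, 1 and 1 of 467 on chromosome 16, and 1 and 2 of 742 on chromosome 17, against 0.812% of all genes. With each library centred on the median of each chromosome, an alternative chosen after seeing the data, 3 of the 20 falls on chromosome 3 were still called, against 12 of the 17 falls on other chromosomes and 32 of the 92 rises.

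The called genes of chromosome 3 had mostly small differences at middle levels. Zbbx, a little-described zinc finger gene, had 6.78 and 8.44 against 1.90 and 3.42 TPM (−1.26, SE 0.21, adjusted p = 0.0376). Clca3b, of a family of chloride channel regulators, fell most after Tet2, from 7.53 and 9.60 TPM in wild type to 1.36 and 1.19 TPM in DKO (−2.07, SE 0.32, limma adjusted p = 0.0254). Gstm2 and Gstm1, neighbouring glutathione transferases that share sequence, fell by 0.96 and 0.61 (adjusted p = 0.0467 and 0.0397). Golph3l, a Golgi protein, fell by 0.86, Mccc1, of leucine breakdown, by 0.62 and Hipk1, a nuclear kinase, by 0.61. Cenpe, the kinetochore motor, had 53 and 49.8 against 33.5 and 36.8 TPM (−0.54, SE 0.083, adjusted p = 0.0254). Supt20, of the SAGA complex, fell by 0.51 and Ubap2l, at 176 and 169 against 127 and 135 TPM, by 0.40. The fall of Tet2 was larger than the shift of its chromosome, and Tet2 was still called with the chromosomes centred.

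Genes next to the targeted ones were read as well. Within 500 kb of Tet2, Arhgef38, a guanine nucleotide exchange factor, had 2.41 and 2.23 TPM in wild type and 0.381 and 0.804 TPM in DKO (−1.07, SE 0.20, limma adjusted p = 0.0443), at a distance of 229 kb. Ppa2, at 85.4 kb, had a log2 fold change of 0.24, Ints12 of 0.10 and Gstcd of −0.056, and 0 of the 3 were called. Within 500 kb of Tet1, 0 of 22 genes were called. With 0.812% of all genes called, counts of 0 in groups this small say nothing about the neighbours. Gm26479 and Gm48353, gene models inside Tet1, had −0.042 and 0.16. The nearest beyond its span were Slc25a16 at 11.6 kb, with 0.25, and Ccar1 at 12.3 kb, with 0.026.

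Among the fixed gene lists, the germline genes repressed by DNA methylation leaned towards DKO. Of the 41 tested, 1 was called higher and 0 lower, 2.44% against 0.812% of all genes, and before adjustment 15 had a p under 0.05 on the higher side and 2 on the lower. The median was 0.42 beside 0.025 for all genes, and in 23 of the 41 both DKO libraries lay above both wild-type ones, against a background of 25.6% of genes. Stag3, a cohesin subunit of meiosis, was the called gene, at 28.7 and 28.1 TPM in wild type and 50.3 and 45.4 TPM in DKO (0.73, SE 0.11, limma adjusted p = 0.0254). Stra8, needed for entry into meiosis, had 26.3 and 33.3 against 158 and 78.3 TPM, with both DKO libraries above wild type but far from each other (1.87, SE 0.52, adjusted p = 0.136). The median stayed between 0.30 and 0.43 when 1 library was left out.

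Other genes with known roles in the germline were among the 92, chosen here after their values were seen. Dmc1, the recombinase of meiosis, had 5.32 and 3.86 TPM in wild type and 8.44 and 8.87 TPM in DKO (0.80, SE 0.14, limma adjusted p = 0.0397). Fkbp6, a cochaperone of spermatogenesis, had 24.5 and 26.8 against 44.0 and 45.4 TPM (0.78, SE 0.12, adjusted p = 0.0248). Gtsf1, a factor of the piRNA pathway, had 4.67 and 4.35 against 9.20 and 9.76 TPM (0.93, SE 0.13, adjusted p = 0.0152). The DKO libraries were close to each other in all 3. Such genes were picked from the calls, so they are no count of germline genes.

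The promoters of 2 of these germline genes and of Rhox10 are shown because they differ in CpG content, the substrate of DNA methylation. The stretches are the 120 bases before the start site in RefSeq (GRCm38.p6), 5′ to 3′ on the strand of the gene, with each CpG in capitals.
Stag3, chr5:138280389-138280508, plus strand: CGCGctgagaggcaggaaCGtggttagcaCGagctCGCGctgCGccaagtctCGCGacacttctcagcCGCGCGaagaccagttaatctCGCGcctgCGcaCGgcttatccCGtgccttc
Fkbp6, chr5:135350045-135350164, minus strand: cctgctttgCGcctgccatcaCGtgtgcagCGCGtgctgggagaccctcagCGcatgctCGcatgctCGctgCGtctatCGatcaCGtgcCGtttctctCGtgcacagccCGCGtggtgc
Rhox10, chrX:38066355-38066474, plus strand: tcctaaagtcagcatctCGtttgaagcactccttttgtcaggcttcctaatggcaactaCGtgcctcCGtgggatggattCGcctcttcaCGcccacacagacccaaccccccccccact
These stretches hold 17, 14 and 5 CpGs. Over 300 bases, from 250 before to 50 after the start, Stag3 had 30, Fkbp6 21 and Rhox10 9.

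CpG content over those 300 bases had the same median in the rises as in all genes. It was 21.0 CpGs in the 61 of 92 rises with a RefSeq promoter entry and 21.0 in the 10047 of all genes with one, and it was 17.0 in the 21 of 37 falls. Without DKO replicate 2, where 7 genes were called higher, the median of those rises was 11.0. Under 10 CpGs were found in 21.3% of these rises, 33.3% of the falls and 16.6% of all. A pair of motifs known from promoters of germline genes was searched on both strands, the palindromic E-box CACGTG and the E2F-type GCGGGAA, which can share 1 base at most. The E-box was in 11.5% of promoters of rises and 10.6% of all, and the E2F-type motif in 14.8% and 9.01%. In the germline list the shares were 42.1% and 28.9% of 38 promoters. A match is a description of letters, and no binding was measured here.

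Rhox genes and Polycomb, H3K9 and DNA methylation genes were read by the same rule. Of 9 tested Rhox genes Rhox10 was called, against 0.812% of all genes, and the median was 0.30. Rhox5, by far the most abundant, had 248 and 193 against 176 and 259 TPM, so its groups overlapped. Of 17 DNA methylation writers and maintenance factors 0 were called, with a median of −0.057, or 0.23 beside 0.29 for all genes with spike-in factors, and the most abundant was Trim28 at 1344 and 1340 against 1331 and 1278 TPM. Of 32 Polycomb genes 0 were called, with a median of 0.054. It was −0.001 without wild-type replicate 1 and 0.10 without wild-type replicate 2.

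Of 21 H3K9 methylation genes 1 was called lower, against 0.233% of all genes. Kdm4b, a demethylase of H3K9, had 11.1 and 12 TPM in wild type and 6.94 and 6.37 TPM in DKO (−0.72, SE 0.094, limma adjusted p = 0.0133). Setdb1, an H3K9 methyltransferase on chromosome 3, had 72.0 and 76.2 against 52.7 and 55.5 TPM (−0.45, SE 0.091, adjusted p = 0.0552). Its groups did not overlap, it missed the adjusted threshold, and it lay on the chromosome whose median was −0.21. In 20 of the 21 genes the fitted value was below 0, against 44.2% of the genes off chromosome 3. In 8 of the 21 the groups did not overlap with DKO lower, against 16.3% of all genes. The list's median was −0.056 beside 0.025 for all genes, and 0.23 beside 0.29 with spike-in factors. It was −0.22 without wild-type replicate 1 and −0.006 without wild-type replicate 2.

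Of 25 core and naive pluripotency genes 0 were called, against 0.812% of all genes, and the median was −0.092, or 0.001 without DKO replicate 1. With spike-in factors it was 0.20 beside 0.29 for all genes. Before adjustment 5 reached a p under 0.05 with higher values, among them Klf4 at 66.4 and 71.5 against 135 and 96.0 TPM (0.71, limma adjusted p = 0.130), and 2 with lower values, Lin28a and Fgf4. Over all genes 9.72% did so with higher and 5.13% with lower values. Of 16 formative and primed genes 0 were called, with a median of −0.21, or 0.075 beside 0.29 for all genes with spike-in factors. It was −0.061 without DKO replicate 1 and −0.091 without wild-type replicate 2. LIF and STAT3 signalling genes had a median of 0.20 over 14 tested with 0 called. Lifr, the LIF receptor, had 66.0 and 69.6 against 88.0 and 84.5 TPM, without overlap (0.34, SE 0.078, adjusted p = 0.0794).

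In Nodal signalling, which patterns the early embryo, 1 of 16 tested genes was called, against 0.812% of all genes. Lefty2, a secreted inhibitor of Nodal and itself a target of the pathway, had 29.1 and 40.6 TPM in wild type and 55.2 and 67.3 TPM in DKO (0.81, SE 0.15, limma adjusted p = 0.0457). Lefty1, the related inhibitor, had 24.8 and 57.4 against 44.7 and 29.8 TPM, so its replicates spread more than the groups (−0.051, SE 0.54). The ligand Nodal had 47.0 and 79.0 against 50 and 52.4 TPM. The list's median of 0.19 fell to 0.022 without wild-type replicate 1. The BMP receptor Bmpr2 did not pass the test, at 8.15 and 9.40 against 14.5 and 13.4 TPM (0.61, adjusted p = 0.0984).

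Primitive endoderm markers, which mark cells that leave the ES state, split the libraries in a way that followed neither genotype nor replicate number. Cubn had 2.69 and 19.7 TPM in wild type and 17.0 and 2.36 TPM in DKO, Dab2 4.68 and 21.6 against 17.2 and 5.25 TPM, and Gata4 1.90 and 5.91 against 6.21 and 1.83 TPM. Wild-type replicate 2 and DKO replicate 1 were high in these 3 genes, and the other 2 libraries were low. Of 21 tested markers Hnf4a was called higher and 0 were called lower, against 0.812% of all genes. The median was −0.046 and ranged from −0.44 without wild-type replicate 1 to 0.31 without DKO replicate 2, and in bulk RNA fewer such cells and less RNA per cell cannot be told apart. Hnf4a had the same order within each genotype, but both DKO libraries were above both wild-type ones. Mesendoderm, neuroectoderm and trophectoderm markers had 0 called of 5, 9 and 13 tested.

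The Zscan4 family and other genes of the 2-cell-like state, which few ES cells enter at a time, had the lowest median of all lists, −0.79 over 24 tested, and 0 were called. Zscan4c had 21.6 and 41.8 TPM in wild type and 17.2 and 8.37 TPM in DKO (−1.25, SE 0.43, limma adjusted p = 0.205), and the 6 Zscan4 genes are near-identical copies whose reads cannot be assigned with certainty. Before adjustment 8 reached a p under 0.05 with lower and 0 with higher values, against 5.13% and 9.72% of all genes. The median depended on the libraries, at −0.31 without wild-type replicate 2 and −1.30 without wild-type replicate 1.

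Replication-dependent histones had a median of 0.42 over 69 tested with 0 called, and in 50 of them both DKO libraries were above both wild-type ones, against 25.6% of all genes. The median was 0.26 without DKO replicate 2. At 24 and 72 h of mTORi the list's median was 0.081 and 0.085, beside 0.012 and 0.11 for all genes. Their summed level was 33359 and 29815 TPM in wild type and 37202 and 44830 TPM in DKO. Mitochondrially encoded genes had a median of 0.47 over 35 tested with 0 called, and 18 of them lay higher in DKO without overlap. The largest differences were those of tRNA genes under 200 bp, such as mt-Ti at 59.1 and 82.6 against 128 and 164 TPM. Among the abundant mRNAs, mt-Co1 had 9187 and 10591 against 10998 and 12311 TPM (0.24), mt-Nd1 4201 and 4720 against 4968 and 6478 TPM (0.35) and mt-Co2 3255 and 3978 against 4047 and 4462 TPM (0.24). The list's median was 0.14 without wild-type replicate 1. Of 81 cytosolic ribosomal protein genes 0 were called, with a median of 0.10. That median was 0.011 without DKO replicate 2 and 0.16 without DKO replicate 1.

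The remaining lists had 0 calls each. Medians lay between −0.059 and 0.21 for ATF4 stress response, BMP and Id genes, FGF and ERK feedback, Wnt targets, bivalent developmental regulators, interferon-stimulated genes, basement membrane and adhesion genes, glycolysis, cholesterol synthesis, clustered protocadherins and cardiac and muscle markers. Several of these medians changed sign when 1 library was left out, with ranges of −0.31 to 0.22 for the bivalent regulators, −0.044 to 0.28 for interferon-stimulated genes and −0.10 to 0.16 for FGF and ERK feedback, and that of the ATF4 genes ranged from 0.066 to 0.31. For 4 tested Hox genes the median was 0.32, with 35 of 40 under 1 TPM in all 4 libraries. Atf4, the transcription factor of the amino acid response, had 206 and 185 TPM in wild type and 253 and 256 TPM in DKO (0.38, SE 0.085, limma adjusted p = 0.0761).

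**Figure D4:**
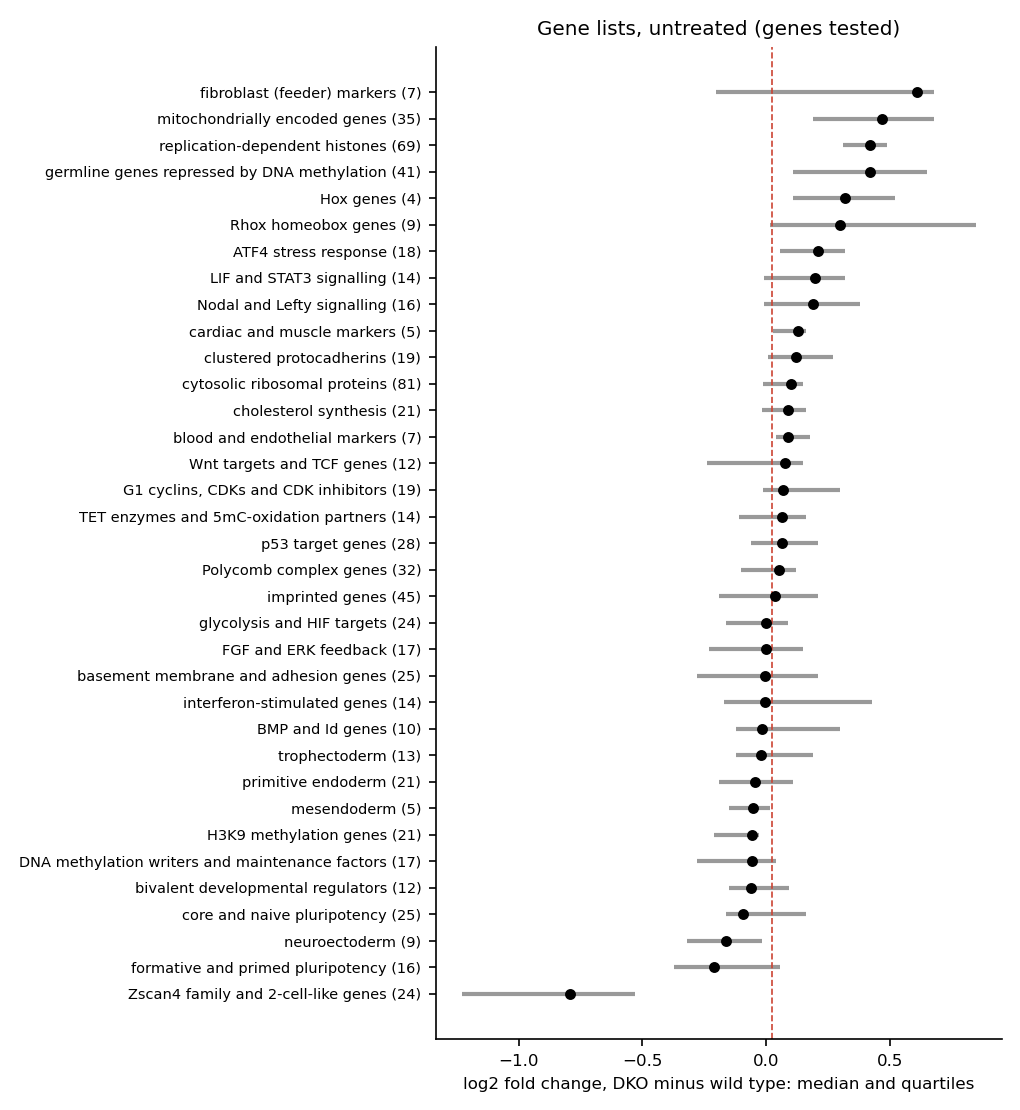
Median (points) and quartiles (bars) of the log2 fold change, DKO minus wild type, of the tested genes of each list, with the number tested in parentheses; the dashed line is the median of all genes, 0.025. Zscan4 and 2-cell-like genes lie lowest at −0.79, and germline genes and replication-dependent histones both lie at 0.42.

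The genes called at 0 h were then read at the later times. The later libraries did not enter the 0 h difference itself, but they entered the filter and the estimate of each gene's spread, and with only the 4 untreated libraries in the fit 1 gene was called in place of 129. At 24 h of mTORi, DKO against wild type had the same direction in 125 of the 129 genes, and 74 were called in that direction, against 1.74% of all genes called at 24 h. At 72 h the direction was the same in 126, and 94 were called, against 5.21% of all genes. Over all genes tested, the direction at 0 h was shared by 10750 of 15878 at 24 h and 11257 at 72 h. Called in the same direction at both times were 63 of the 129, against 125 of all 15878 genes. In the other direction 0 of the 129 were called at either time. Over all genes these were 21 at 24 h and 22 at 72 h, so few that a count of 0 says little. Libraries of the same genotype and replicate number may share a culture, and then are not independent of those at 0 h.

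The medians stayed on the same side of 0. Because the genes were chosen for their difference at 0 h, smaller values at other times follow in part from that choice. For the 92 rises the median of 0.75 before treatment was followed by 0.59 after 24 h and 0.68 after 72 h, and for the 37 falls −0.90 was followed by −0.65 and −0.66. Tet2 was at −2.59 and −2.45, Grb10 at −1.72 and −1.51, Spink1 at −2.17 and −2.71, and Rhox10 at 1.72 and 1.45. Lefty2 was further from wild type at the later times, at 1.67 and 1.90. The exceptions in direction were Kdelr3, Mpzl2, Matr3 and n-R5s48 at 24 h and, among the 3 at 72 h, Hnf4a and Tmem181a. Hnf4a went from 1.03 to 0.38 and −0.016, and P2rx3 from −1.83 to −1.04 and −0.46. The difference between the genotype effects at 0 h and at a later time was tested for all genes, and 0 were called at either time (limma adjusted p), with 620 of 15878 genes at an unadjusted p under 0.05 for 24 h and 577 for 72 h. Of the 129 genes called at 0 h, 34 reached that p for 24 h (27 of the 92 rises and 7 of the 37 falls) and 17 for 72 h (12 and 5). These counts share the choice by the 0 h difference and are no test of a change over time.

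**Figure D5:**
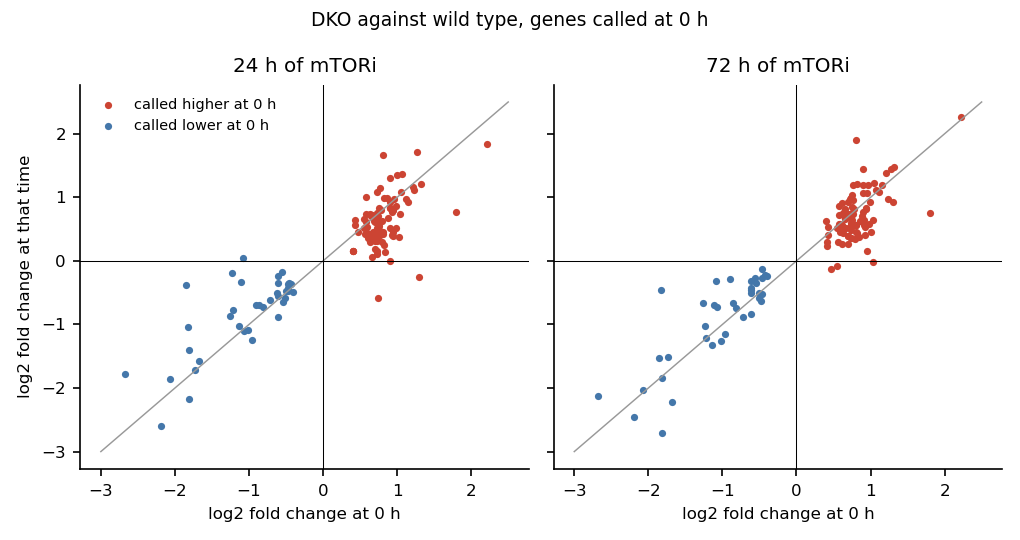
The log2 fold change of DKO against wild type at 24 h (left) and 72 h (right) of mTORi against that at 0 h, for the 92 genes called higher (red) and 37 called lower (blue) at 0 h; the grey line marks equal values. All but 4 genes at 24 h and 3 at 72 h lie on the same side of 0 as at 0 h.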

How the data were processed

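RNA-seq was made by the authors from total RNA of a fixed number of sorted cells, depleted of ribosomal RNA, with ERCC RNAs added, and sequenced paired-end. Per the labels and the study's methods, reads were trimmed with cutadapt, aligned to mm10 with STAR and quantified with StringTie on GENCODE VM19. The labels give cutadapt 2.4, STAR 2.7.3a and StringTie 2.0. Each deposited TPM table adds up to 1000000 and has 0 ERCC entries, so no spike-in scaling is in it. TPM keep no counts, so DESeq2, which the authors used, could not be run.

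TPM of entries with the same gene identifier were summed. All 14 libraries in 7 groups of 2 were fitted with limma 3.58.1 (R 4.3.3, empirical Bayes with a trend) on log2(TPM + 1), with a mean of at least 1 TPM. Fold changes on this scale understate those of low genes. The fit was also run on simulated data with known changes, and the outcome is not reported here. Named genes were the TET genes, the 12 largest rises and the 12 largest falls (called, over a span of 200 bp or more, groups not overlapping, no gene models), the called members of each list or else its most abundant ones, called genes of chromosome 3, and genes within 500 kb of Tet1 or Tet2. The comparison and lists were chosen with earlier results of these data known. Spike-in factors, the median ratio of the study's spike-in table to the deposited TPM, served as an alternative only, since that table was in hand in part. Promoters came from RefSeq by symbol. Some genes that these rules name are not reported here.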

Additional observations from a re-analysis of the deposited data

How the results depend on the processing

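Tet2 kept its direction and its call in every alternative tried. The counts of calls moved most. The 92 genes called higher became 5 with spike-in factors, 0 with only the 4 untreated libraries in the fit (limma, 1544 genes at an unadjusted p under 0.05 in either direction), 26 with the 12 libraries of 0, 24 and 72 h, and 34 with each chromosome centred. The 37 called lower became 3, 1, 11 and 19 in these fits, 57 without the filter on low values, and 64 on values rescaled without short and mitochondrial genes. Leaving out 1 library gave 0 to 8 higher and 1 to 7 lower. With the replicate number as a block 30 were higher and 15 lower; same-numbered libraries deviated together within a genotype (r = 0.068 to 0.461) but in opposite directions between the genotypes at 0 h (r = −0.479), so the numbers were not taken to pair wild type with DKO. Time points of a replicate were processed in parallel, per the study. Of the called genes named, Bin1, Slfn9, Hnf4a, Lefty2, Smo, Dmc1, Camkk2, Matr3, Mpzl2, Tmem181a, Pla2g12a, n-R5s48, Clca3b, Arhgef38, Gstm2, Gstm1, Golph3l, Mccc1, Hipk1, Cenpe, Supt20 and Ubap2l were not called under that block. With the numbers crossed between the genotypes as the block, chosen after seeing the data, 334 were higher and 147 lower, Tet1 among the latter at −0.38. The 129 genes kept their direction in all fits that tested them. Where 1 library was left out this follows from their groups not overlapping. The chromosome 3 median minus the rest was −0.29 with a pseudocount of 0.1, −0.16 with 5, −0.030 without the filter (38890 genes), and −0.046 with each chromosome centred, which removes it by construction. The median CpG count of promoters of rises, 21.0, was 12 with spike-in factors and 11.0 to 22 when 1 library was left out. The causes of the other changes were not tested. TPM hold no depth, so what depth limits could not be assessed.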
